A study of Arabidopsis thaliana with 4 samples.

Results

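The genes described here are 1206 loci of Arabidopsis thaliana that the array's annotation calls pseudogenes and does not call transposons, out of 30361 gene models measured. They are the models of chromosomes 1 to 5 whose description holds the word pseudogene and neither a word beginning with transpos nor retroelement. The rule also left out 2 loci by name. The description words do not use intensities, but earlier results of these data were known when the members were chosen.

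A pseudogene is a copy of a gene that has lost the ability to make the full protein, through frameshifts, early stops or the loss of a part. Such copies arise by duplication, by reverse transcription of messenger RNA or by insertion of organelle DNA into the nucleus. In plants many of them lie among transposable elements around the centromeres, where DNA methylation and repressive histone marks keep transcription low, and loss of those marks can bring transcripts from them.

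RNA came from whole seedlings of the accession Landsberg erecta (Ler), grown on MS plates and harvested on day 7. The TEKi group held T3 plants of a line with an artificial microRNA whose target is TEK, a DNA-binding protein with an AT-hook, and its labels give late flowering. The wild-type group held Ler without that construct, with normal flowering time. Each group had 2 arrays from separate cultures, hybridised with Cy3 on single-colour NimbleGen arrays, and the sources used here give neither the promoter of the construct nor the number of lines.

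The intensities exist in a separate file for each array and again in a value table of the series, and these sources disagree on 2 of the 4 arrays. TEKi 2 and wild type 1 are the same arrays in both. The value table lists the array filed as TEKi 1 under wild type 2, and lists the array filed as wild type 2 under TEKi 1. No array was relabelled by its values, so the comparison of the groups is given for both sources, the array files first, and "TEKi" and "wild type" mean arrays so labelled in the source named. Both comparisons use the same 4 arrays and are not independent of each other.

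TEK itself (AT2G42940) had an intensity of 9864 on the array filed as TEKi 1 and 13770 on TEKi 2, against 13406 on wild type 1 and 14118 on the array filed as wild type 2. Its log2 difference, TEKi minus wild type, was -0.24 (SE 0.249, adjusted p = 1) with the array-file labels and 0.28 (SE 0.226, adjusted p = 0.694) with the value-table labels, so the target gene left the choice between the sources unsettled. The 5 markers of photosynthetic tissue had a median between 62862 and 64047 on every array, at or near the highest deposited intensity. Their lowest value was 636 and 626 in TEKi, against 96.3 and 301 in wild type with the value-table labels. The 5 root markers summed to 56376 and 66072 in TEKi, against 53795 and 53832 in wild type with the value-table labels. With the array-file labels the root sums overlapped. The 3 flower organ markers summed to 1064 and 1845 in TEKi, against 2996 and 3294 in wild type with the array-file labels, and the groups overlapped with the value-table labels. The 2 tapetum and pollen wall markers summed to 630 and 998 in TEKi, against 763 and 1106 in wild type with the array-file labels. Those groups overlapped. With the value-table labels the sums were 1106 and 998 in TEKi, against 763 and 630 in wild type, so both TEKi arrays were higher. The 4 markers of maturing seed summed to 11754 and 28307 in TEKi, against 37453 and 31928 in wild type with the value-table labels. Both TEKi sums were thus lower, as the pseudogenes that fell with those labels were by definition. The highest of the 4 values was 7192 and 18062 in TEKi, against 15671 and 14517 in wild type, and overlapped. With the array-file labels the seed marker sums overlapped. No marker was at 0, and the part of these tissues in the differences was not tested. Samples were bulk tissue, so fewer cells of a type and less RNA per cell cannot be told apart.

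The pseudogenes are spread over the nuclear chromosomes, with 269, 309, 248, 170 and 210 loci on chromosomes 1 to 5. Their median length was 1164.5 bp, against 1925 bp for all models and 2673 bp for transposable element genes. Of the 1206, 1100 were measured with 2 probe pairs, 103 with 3 and 3 with 1, and 7 models stand for several loci. Where copies are nearly identical, a probe can bind the transcript of a parent gene or another copy, so the locus behind a value is uncertain. The series has no detection flags here, and a fold against a dim value describes deposited intensities, not transcript amounts.

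By the protein they are said to resemble, the pseudogenes fell mostly into a class with no known protein. Hypothetical or unknown proteins made up 669 loci, of which 511 carry no description beyond those words, and 24 more are called expressed proteins. Proteins of mobile elements were named for 68 loci whose descriptions escape the transposon words, with 52 resembling reverse transcriptases, which copy RNA into DNA, and 16 resembling polyproteins, the retroelement Athila or TNP2, the transposase of a snapdragon element. A further 70 resembled helicases (39), replication protein A (15) or Ulp1 proteases (16), families that plants use in DNA unwinding, single-strand binding and SUMO removal and that some plant mobile elements also carry. The other 375 resembled ordinary cell proteins, among them 35 encoded in organelles, 35 receptor or protein kinases, 18 ribosomal proteins, 18 transcription factors, 17 transporters or channels, 14 disease resistance proteins, 14 glycine-rich proteins, 12 F-box proteins and 10 cytochromes P450.

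Most pseudogenes were dim, and the arrays differed in how many were bright. Their median intensity was 262 and 237 on TEKi 1 and TEKi 2, against 275 and 233 on wild type 1 and wild type 2 with the array-file labels, while the median of all genes lay between 5639 and 5814. The 90th percentile of the pseudogenes was 13434 on TEKi 1 and 3147 on TEKi 2, against 10821 on wild type 1 and 3226 on wild type 2 with the same labels. The array filed as TEKi 1 and wild type 1 thus had the long bright tail, and the groups of the array files overlapped.

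**Figure D1:**
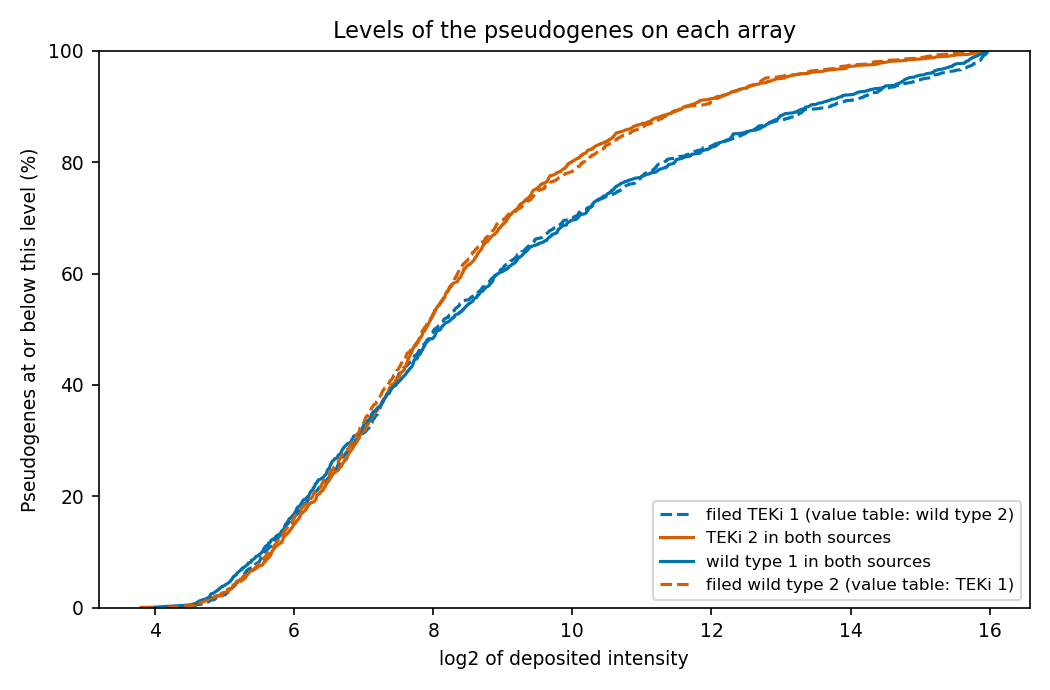
Share of the 1206 pseudogenes (vertical axis, percent) at or below each log2 intensity (horizontal axis), 1 line for each of the 4 arrays, coloured by value-table label and dashed where the 2 sources disagree. TEKi 2 and the array filed as wild type 2 lie together, above wild type 1 and the array filed as TEKi 1 in the upper part of the range.

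Intensities above 10000 were counted to describe that tail. They were reached by 135 pseudogenes on the array filed as TEKi 1 and 50 on TEKi 2, against 127 on wild type 1 and 50 on the array filed as wild type 2. All 4 arrays exceeded 10000 for 43 pseudogenes, and 75 exceeded it on the array filed as TEKi 1 and on wild type 1 but on neither other array. Only 2 did so on TEKi 2 and the array filed as wild type 2 alone, and 1060 did so on no array.

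Across the pseudogenes, log2 intensities had a Pearson's r of 0.946 between the array filed as TEKi 1 and wild type 1, and 0.905 between TEKi 2 and the array filed as wild type 2. It was 0.766 between the 2 arrays filed as TEKi and 0.782 between the 2 filed as wild type. Over all genes the same 4 pairs gave 0.972, 0.974, 0.930 and 0.934. These are correlations across genes, which are not independent replicates, and the arrays share probes and scaling.

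The first comparison asked which pseudogenes differ between TEKi and wild-type seedlings as the array files label them. None of the 1204 pseudogenes without a 0 reached adjusted p = 0.05 in limma's fit, and neither did any of the 30352 genes tested (0%). At an unadjusted p under 0.05, 38 pseudogenes were lower in TEKi (3.16%, against 2.24% of all genes) and 46 were higher (3.82%, against 2.37%). The median log2 difference was 0.040 for the pseudogenes and 0.0060 for all genes. At least 4-fold with no overlap between the groups, 7 pseudogenes were lower (all genes 0.366%) and 5 were higher (all genes 0.221%).

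The pseudogene with the smallest unadjusted p was AT3G30733, on chromosome 3 from 12362217 to 12362512 (genome release 6), described as resembling a hypothetical protein. It had 248 on TEKi 1 and 244 on TEKi 2, against 1115 on wild type 1 and 1179 on wild type 2 (log2 difference -2.22 ± 0.165, SE, 2 arrays per group, adjusted p = 1). Both TEKi arrays lay below both wild-type arrays. On the other side AT2G11040, a hypothetical protein, had 232 on TEKi 1 and 258 on TEKi 2, against 60.8 on wild type 1 and 66.0 on wild type 2 (log2 difference 1.95, adjusted p = 1).

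The other pseudogenes that the rule named with these labels also had groups apart without passing. AT3G28157, AT3G30885, AT4G06489 and AT5G38275 had log2 differences of -1.84, -1.17, -1.44 and -1.28. AT3G30885 resembles a phosphate translocator, a carrier of the plastid envelope. AT2G11120, AT2G07185, AT1G60330 and AT2G10234 had 1.35, 1.70, 1.59 and 1.84. AT1G60330 resembles chalcone isomerase, an enzyme of flavonoid synthesis. The highest value among these 10 was 1828, for AT3G28157 on wild type 2. With the value-table labels none of the 10 had groups apart, and their log2 differences ran from -0.36 to 0.23. The 10 were chosen for small p and groups apart with the array-file labels. Exchanging an array of each group therefore fixed the overlap in advance and favoured small differences.

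The second comparison put the same question to the arrays as the value table labels them. Of 1204 pseudogenes tested by limma, 105 fell in TEKi (8.72%, against 1.95% of all genes tested) and 1 rose (0.0831%, against 0.273%). At an unadjusted p under 0.05, 271 were lower (22.5%, against 6.94% of all genes) and 93 were higher (7.72%, against 7.5%). The share that fell past the adjusted threshold was 10.4% for transposable element genes and 0.863% for the other genes of chromosomes 1 to 5. The median log2 difference was -0.058 for pseudogenes, -0.23 for transposable element genes and 0.090 for all genes. With any 1 of the 4 arrays left out, or with the replicate number as a block, 0 pseudogenes passed (smallest adjusted p over all genes 0.0753 to 0.245), and 234 to 284 had negative differences at an unadjusted p under 0.05.

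The largest fall was that of AT4G06720, a hypothetical protein on chromosome 4 from 4019623 to 4021473. It had 240.2 on TEKi 1 and 154 on TEKi 2, against 45004 on wild type 1 and 57122 on wild type 2 (value-table labels), a 264-fold fall (log2 difference -8.04 ± 0.314, SE, 2 arrays per group, adjusted p = 0.0133). The wild-type arrays were bright and both TEKi arrays dim, with no overlap. The array-file labels put 1 bright and 1 dim array in each group, and its log2 difference there was -0.15 (SE 4.44).

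AT5G32107, a hypothetical protein on chromosome 5 from 11830751 to 11833693, fell 232-fold in TEKi. It had 321 on TEKi 1 and 194 on TEKi 2, against 52785 on wild type 1 and 63191 on wild type 2 (adjusted p = 0.0145). AT4G04293, known as IS112A and kept silent by DNA methylation in other work, fell 261-fold. The hypothetical protein AT2G02205 had 92.3 on TEKi 1 and 46.9 on TEKi 2, against 10426 on wild type 1 and 15630 on wild type 2, a 194-fold fall.

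The next 8 falls ran from 109-fold (AT4G03923) to 63.3-fold (AT4G06736). AT5G32228, AT5G33250, AT4G06517, AT5G33260 and AT1G41680 are hypothetical proteins between them. AT1G49080, on chromosome 1 from 18163557 to 18164132, resembles the transposase TNP2. It had 732 on TEKi 1 and 798 on TEKi 2, against 55092 on wild type 1 and 54016 on wild type 2, a 71.4-fold fall.

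**Figure D2:**
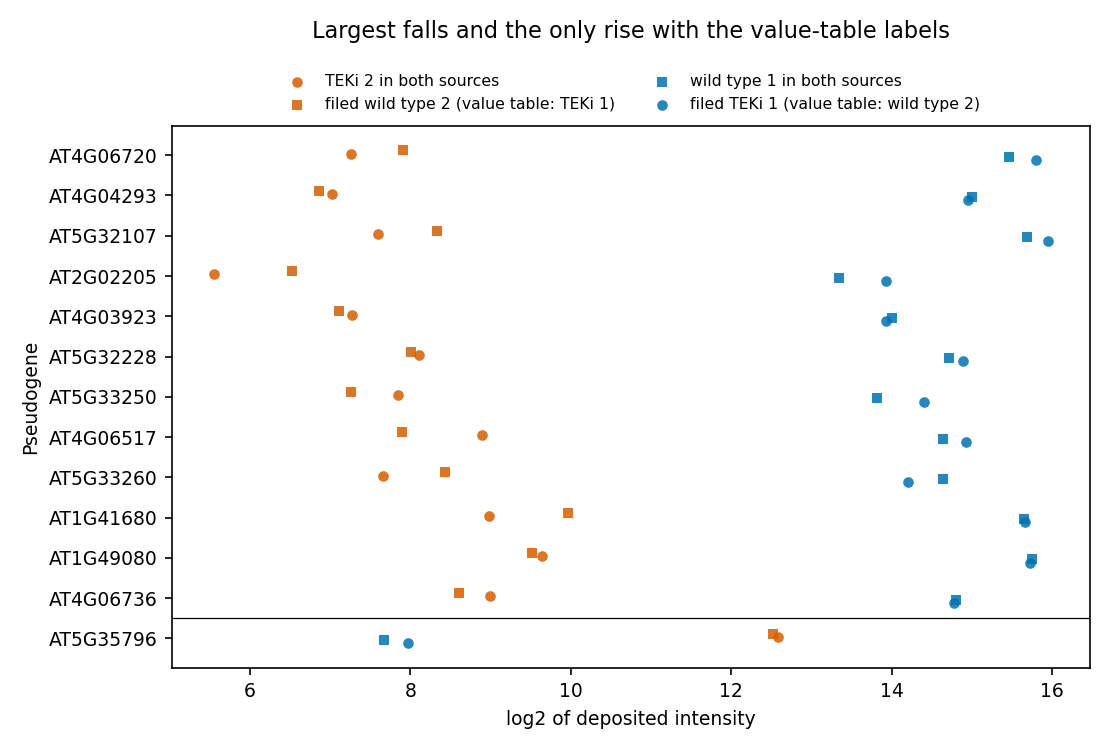
Deposited intensity on a log2 scale (horizontal axis) on each of the 4 arrays for the 12 pseudogenes with the largest falls and the 1 that rose (vertical axis), value-table labels by colour and array-file labels by shape. For each of the 12, TEKi 2 and the array filed as wild type 2 are dim and the other arrays bright, and AT5G35796 below the line has the opposite pattern.

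The 105 pseudogenes that fell shared a wide range of level. Their median intensity was 507 on TEKi 1 and 636 on TEKi 2, against 16471 on wild type 1 and 19675 on wild type 2 (value-table labels). The median fold was 18.2, the smallest 3.69 and 55 fell over 16-fold. Both wild-type arrays exceeded 10000 for 65 of them, and both TEKi arrays were under 100 for 8. At the threshold, AT4G06592 and AT4G06702 had adjusted p = 0.0491 and 0.0498, and AT5G32483 and AT1G41726 just missed it at 0.0501 and 0.0506.

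The 1 pseudogene that rose was AT5G35796, described as resembling a putative protein kinase, on chromosome 5 from 13985767 to 13987162. It had 5861 on TEKi 1 and 6136 on TEKi 2, against 204 on wild type 1 and 252 on wild type 2 (log2 difference 4.73 ± 0.192, SE, 2 arrays per group, adjusted p = 0.0138). The 4 higher ones with the next smallest p and groups apart missed the threshold. They were AT3G21985 and AT5G39861, which resemble receptor kinases, AT1G14090, which resembles a pentatricopeptide repeat protein, a family that acts on organelle RNA, and the hypothetical protein AT1G67645, with log2 differences of 2.01, 2.10, 3.10 and 2.77 (adjusted p 0.0634 to 0.0676).

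**Figure D3:**
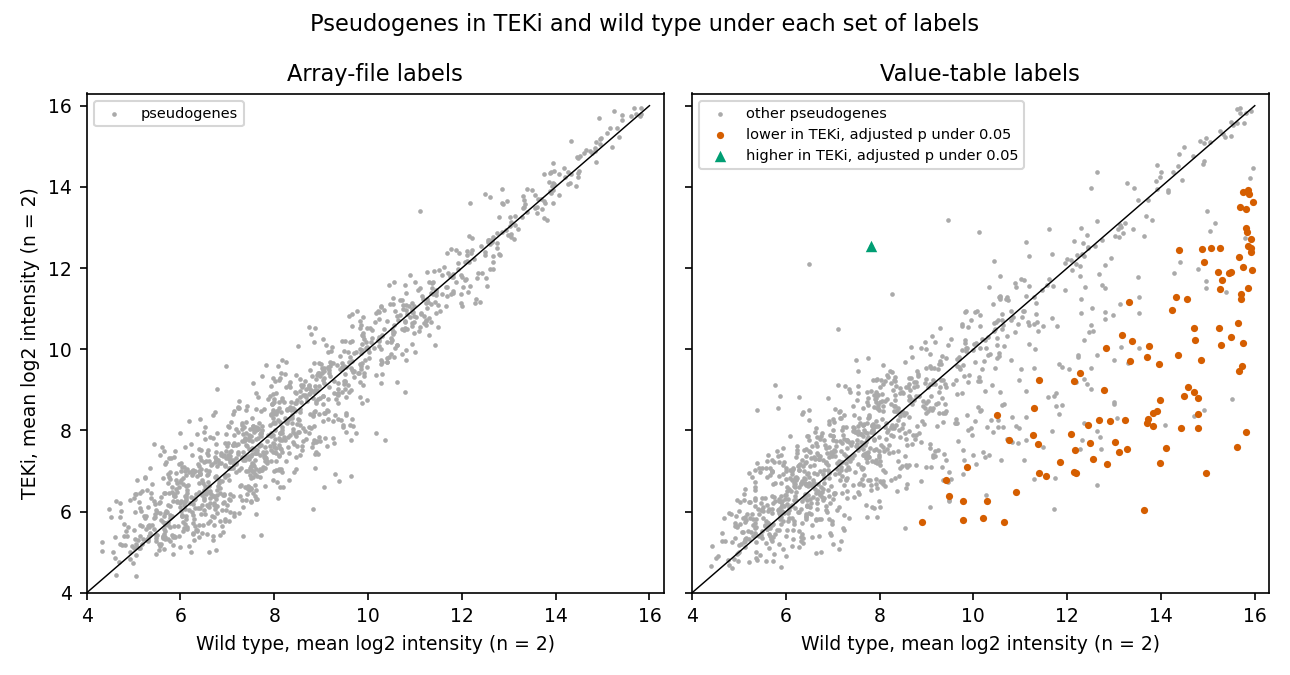
Mean log2 intensity of each pseudogene in TEKi (vertical axis) and wild type (horizontal axis), 2 arrays per group, with the array-file labels on the left and the value-table labels on the right. The 105 pseudogenes that fell spread below the line of equality on the right, the 1 that rose lies above it, and on the left none passed.

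One pair of arrays carries the same labels in both sources, TEKi 2 and wild type 1, and was compared with no test since it is 1 array against 1. On TEKi 2, 213 pseudogenes were at least 4-fold lower than on wild type 1 (17.7%, against 4.92% of all genes) and 54 were at least 4-fold higher (4.49%, against 2.5%). With the value-table labels on all 4 arrays, at least 4-fold and with no overlap, 199 were lower in TEKi (16.5%, against 3.94%) and 16 higher (1.33%, against 1.17%). Of the 105 that fell with the value-table labels, 96.2% were at least 4-fold lower in the pair, which is part of that fit.

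Split by resemblance, most of the fall with the value-table labels lay in pseudogenes without a named protein. The array-file labels called none in any class, biotype or position. Hypothetical, unknown or expressed proteins had 98 of 691 fallen with the value-table labels (14.2%, median log2 difference -0.41), against 2 of 375 among those resembling ordinary cell proteins (0.533%, median 0.18). Mobile element proteins had 3 of 68 fallen and helicases, replication protein A and Ulp1 proteases together 2 of 70. With the array-file labels these 4 groups had median log2 differences of 0.032, 0.066, -0.042 and 0.19. These are counts beside 1.95% of all genes tested, and the difference between classes was not tested.

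Among hypothetical proteins, 69 of the 511 with no further description fell, as did 24 of the 158 with one. One description recurs word for word in 16 loci, all said to resemble a hypothetical protein under the same database entry, and 7 of these fell. Their median intensity was 993 on TEKi 1 and 898 on TEKi 2, against 11982 on wild type 1 and 14249 on wild type 2 (value-table labels), and their median log2 difference was -2.60. This group was picked after its values were seen. Of 24 expressed proteins 5 fell, among them AT2G06220 with 149 on TEKi 1 and 103 on TEKi 2, against 4355 on wild type 1 and 5005 on wild type 2. AT4G06622 had 12279 and 13143 in TEKi and stood at the ceiling of 64047 on both wild-type arrays, so its 5.04-fold fall is compressed.

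Ulp1 protease pseudogenes had a median log2 difference of -1.67 with the value-table labels, with 2 of 16 fallen. AT2G15140, on chromosome 2 from 6573791 to 6578465, had 155 on TEKi 1 and 135 on TEKi 2, against 9987 on wild type 1 and 5391 on wild type 2, a 50.7-fold fall (adjusted p = 0.0246). AT2G02210 fell 28.1-fold, with 256 and 165 against 7104 and 4686. AT2G06430 and AT2G04980 had log2 differences of -5.16 and -4.66 and missed the threshold (adjusted p = 0.0576 and 0.0967). The descriptions of these 4 each name 12 related loci on the array, largely the same ones and including each other, of which 3 or 4 fell.

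Helicase and replication protein A pseudogenes stayed dim, and none passed with the value-table labels. Helicases had a median of 69.1 on TEKi 1 and 83.2 on TEKi 2, against 72.2 on wild type 1 and 76.0 on wild type 2. The helicase copy with the highest mean log2 intensity, AT2G05640, had 368 and 198 in TEKi against 1443 and 1734 in wild type (adjusted p = 0.0997). The widest-ranging, AT3G33595, had 1832 on TEKi 1 and 164 on TEKi 2, against 128 on wild type 1 and 181 on wild type 2. Replication protein A copies had medians of 67.1 and 87.5 in TEKi, against 91.2 and 67.4 in wild type. Whether such levels lie above background is not known without detection flags.

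Reverse transcriptase pseudogenes had a median log2 difference of 0.12, with 1 of 52 fallen (value-table labels). That locus, AT1G07800, had 386 on TEKi 1 and 197 on TEKi 2, against 15099 on wild type 1 and 14194 on wild type 2, a 53.1-fold fall, and lies 115725 bp from the nearest transposable element gene. AT1G44040 had 49.0 and 209 in TEKi against 5658 and 7241 in wild type and missed the threshold (log2 difference -5.98, adjusted p = 0.0834), its 2 TEKi arrays being far apart. In the polyprotein, Athila and TNP2 class 2 of 16 fell, AT1G49080 and AT5G35145, which fell 13.8-fold.

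**Figure D4:**
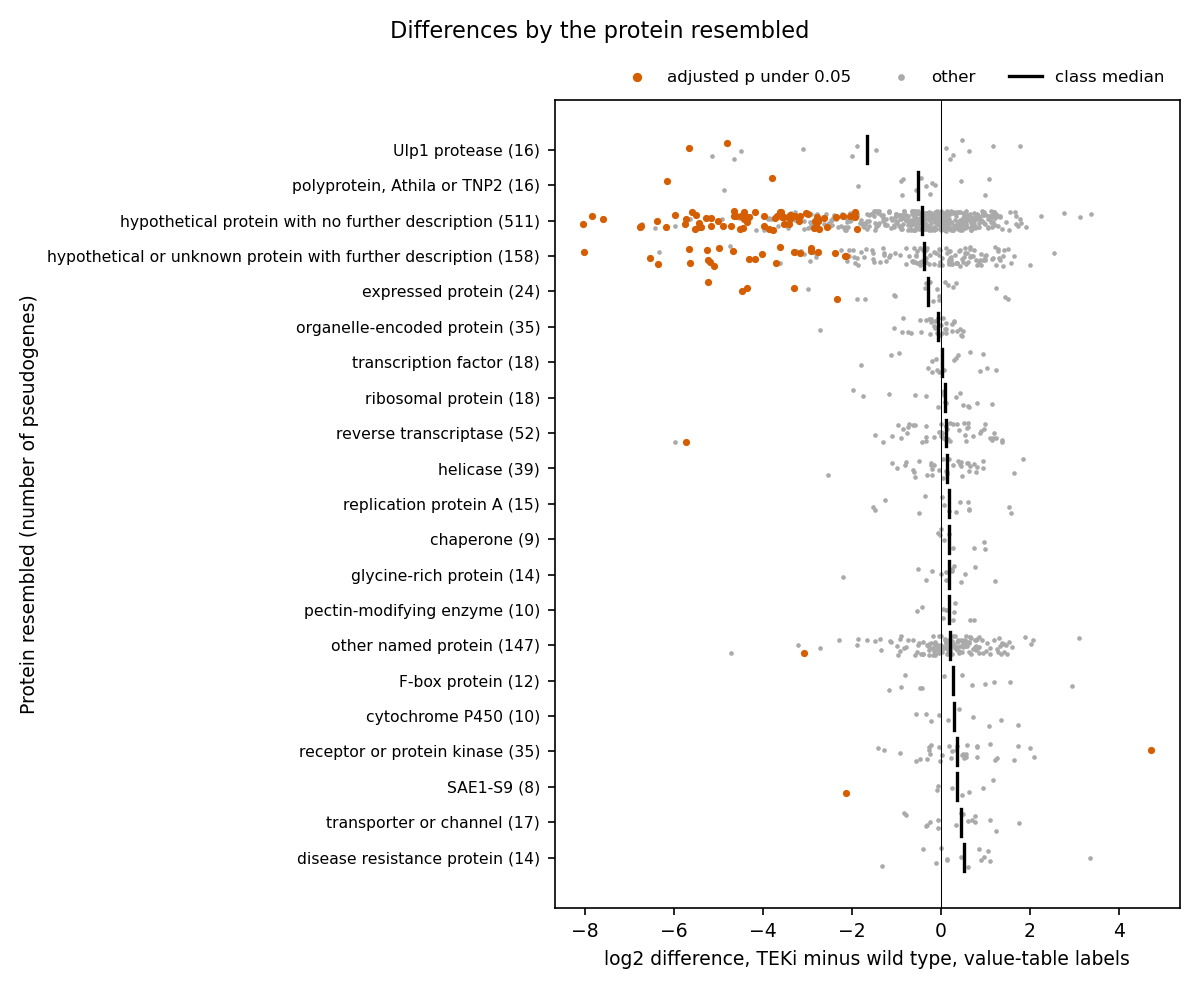
Log2 difference of each pseudogene, TEKi minus wild type with the value-table labels (horizontal axis), in each resemblance class of 8 or more loci (vertical axis, number of loci in parentheses). Orange points passed adjusted p = 0.05 in limma, grey points did not, and the bar is the class median. The orange points left of 0 lie mainly in the hypothetical, expressed, Ulp1 and polyprotein classes.

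Pseudogenes of organelle-encoded proteins, which include pieces of mitochondrial and plastid DNA in the nucleus, had none of 35 called with either set of labels. Their median log2 difference was 0.27 with the array-file labels, where 5 were higher and 1 lower at an unadjusted p under 0.05, and -0.057 with the value-table labels. Of these, 18 lie in the block of loci with names beginning AT2G07, where a large mitochondrial insertion is known on chromosome 2. The median of that block was 10449 on TEKi 1 and 13602 on TEKi 2, against 12464 on wild type 1 and 16754 on wild type 2 (value-table labels), a median log2 difference of -0.046. AT2G07699, a copy of ATPase subunit 6, was bright on every array, at 43749 and 56852 in TEKi and 34317 and 62268 in wild type. Its model stands for 2 loci, so which of them gave these values is uncertain. Among all 1206 pseudogenes, 2 models also stand for a mitochondrial locus, so their probes do not separate nuclear from organelle transcripts.

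Copies of signalling and defence genes are too few for a count of falls to be read against the 1.95% of all genes. Of 35 kinase pseudogenes 1 rose with the value-table labels (AT5G35796, above) and none fell. Their median log2 difference was 0.35, and none of the 14 disease resistance copies passed, with a median of 0.53 against 0.090 for all genes. In the resistance class the widest range was that of AT4G13900, at 626 on TEKi 1 and 493 on TEKi 2, against 80.6 on wild type 1 and 36.8 on wild type 2 with the value-table labels (log2 difference 3.35, adjusted p = 0.0887). The 802 kinase genes of the array outside these pseudogenes had 2 fallen and 4 risen, with a median of 0.059.

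Copies of metabolic and housekeeping genes form small classes too. The cytochrome P450 copy AT3G26165, of a family of haem oxidases, had 25865 and 17310 in TEKi, against 8068 and 5081 in wild type (value-table labels), and missed the threshold (log2 difference 1.72, adjusted p = 0.181). Of 6 tRNA synthetase copies, 2 were at least 4-fold higher in TEKi with no overlap, beside 1.17% of all genes (value-table labels). None of the 6 passed, and their median log2 difference was 0.89. The 2 are copies of lysyl-tRNA synthetase, which charges lysine onto its tRNA, and were named as the widest-ranging and the brightest of the class. AT3G30812 had 3928 and 4949 in TEKi against 33.8 and 238 in wild type (adjusted p = 0.153), and AT3G30817 had 10236 and 8555 against 405 and 1239 (adjusted p = 0.124). Outside these pseudogenes, 4 models of the array were put in the tRNA synthetase class. Of those 4, 2 rose past the limma threshold with the value-table labels, beside 0.273% of all genes, and their median log2 difference was 2.63. None of the 18 ribosomal protein copies, 18 transcription factor copies, 17 transporter copies or 12 F-box copies passed, classes in which 1.95% would be under 1 locus each. The 2 falls among named cell proteins were AT2G13890 (8.49-fold) and AT1G28455, a copy of SAE1-S9 (4.43-fold).

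Some pseudogenes were bright on all 4 arrays. AT3G08943, which resembles importin beta, a nuclear import receptor, had 56580.0 and 62520.2 in TEKi, against 59813 and 64047 in wild type. The glycine-rich copies AT2G32690, AT3G22140 and AT4G22500 and the hypothetical protein AT5G31909 were at or above 43280.1 on every array, and none of these 5 had an adjusted p under 0.536 with the value-table labels. Present annotation (RefSeq) lists AT3G08943 and AT2G32690 as protein-coding.

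RefSeq's current biotype, matched for 1194 of the 1206 loci, was set beside the calls. It lists 640 as pseudogene, 485 as transcribed pseudogene, meaning that transcripts are on record, and 69 as protein-coding. With the value-table labels 102 of 638 tested plain pseudogenes fell (16%, median log2 difference -0.56), against 2 of 485 transcribed pseudogenes (0.412%, median 0.19) and 1 of 69 protein-coding loci. With the array-file labels the medians of these 3 biotypes were 0.049, 0.011 and 0.12. On TEKi 2 against wild type 1, 187 plain pseudogenes were at least 4-fold lower (29.3%) and 12 higher (1.88%). Of the transcribed ones 24 were lower (4.95%) and 42 higher (8.66%), beside 4.92% and 2.5% of all genes. Median intensity of plain pseudogenes was 213 and 219 in TEKi, against 391 and 369 in wild type (value-table labels), and that of transcribed ones was 241 and 230 against 197 and 188.

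Position was read from the array's own coordinates, which follow genome release 6. Whether the loci lie in the same places in Ler was not examined. Of the pseudogenes, 55.9% lay within 5 kb of a transposable element gene, as did 63% of transposable element genes themselves and 8.88% of the other genes of chromosomes 1 to 5. With the value-table labels 98 of 672 pseudogenes within 5 kb fell (14.6%), against 7 of those farther away (1.32%). The same split gave 12% and 7.6% for transposable element genes, and 4.63% and 0.496% for the other genes of these chromosomes. In the 15 windows of 500 kb where transposable element genes were at least 50% of the models, 53 of 297 pseudogenes fell (17.8%, median log2 difference -0.82). Elsewhere 52 of 907 pseudogenes fell (5.73%, median 0.063). With the array-file labels the medians were 0.039 inside these windows and 0.042 elsewhere. Among the other genes of these chromosomes, 28 of 288 in the same windows fell (9.72%), against 0.766% elsewhere.

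Biotype and position overlap. Inside those windows 53 of 232 plain pseudogenes and none of 60 transcribed ones fell, and outside them 49 of 406 plain and 2 of 425 transcribed ones fell. Hypothetical proteins with no further description fell at 41 of 188 inside and 28 of 321 outside. The parts of resemblance, biotype, position and level in the fall were not tested separately.

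**Figure D5:**
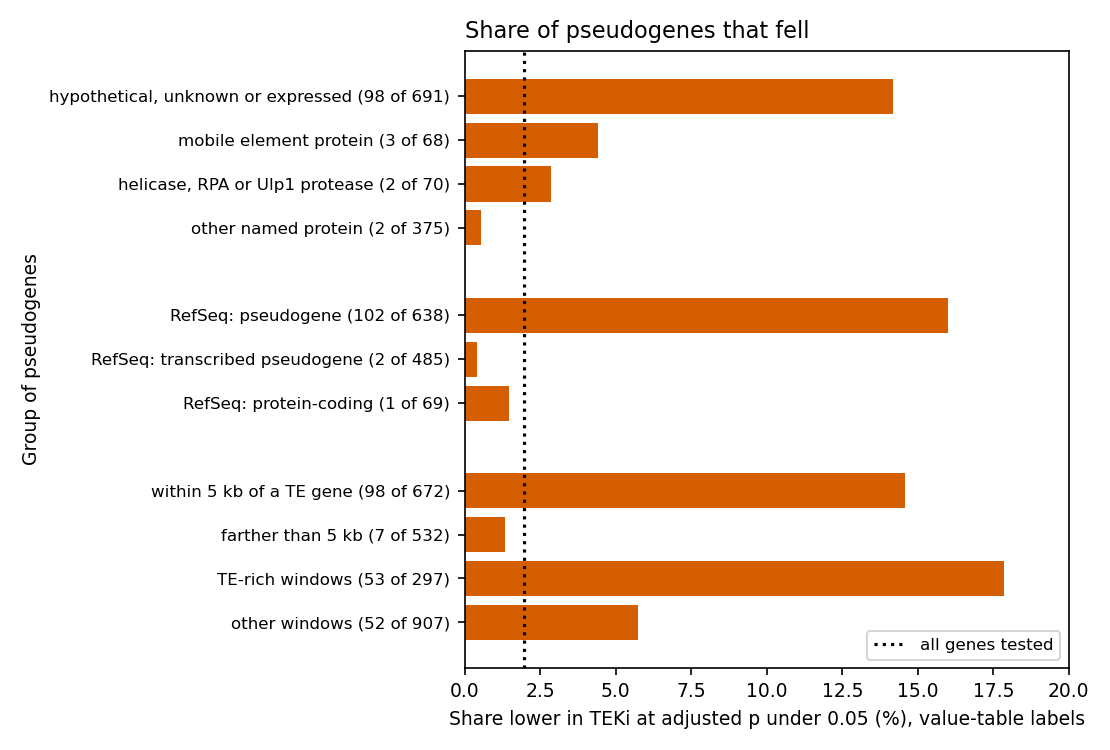
Share of tested pseudogenes lower in TEKi at adjusted p under 0.05 with the value-table labels (horizontal axis, percent), by resemblance, RefSeq biotype and position (vertical axis, with counts). The 12 loci without a RefSeq match are not drawn, TE means transposable element, RPA means replication protein A, and the dotted line is the share of all genes tested, 1.95%. Bars for unnamed proteins, plain pseudogenes and loci near transposable element genes reach 14.2% or more.

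Falls with the value-table labels lay in neighbouring loci in places. By chromosome, 16, 20, 8, 29 and 32 pseudogenes fell on chromosomes 1 to 5. These are 5.95%, 6.49%, 3.24%, 17.1% and 15.2% of those tested, beside 1.95% of all genes. The 500 kb windows rich in transposable element genes held 16%, 8.09%, 29.8%, 49.4% and 34.3% of the pseudogenes of these chromosomes. Another fallen pseudogene lay within 50 kb of 60% of the 105, against 23.4% of the other pseudogenes tested, and 63 of the 105 lay in runs of 2 or more at that spacing. The nearest transposable element gene fell for 11 of the 105 (10.5%), against 8.19% of the others.

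Runs were joined from fallen pseudogenes, and each begins and ends at a fallen one. Their shares of fallen pseudogenes are thus high by construction. They cannot be set against the shares of transposable element genes inside the runs. One of the 2 longest runs spans chromosome 4 from 3957179 to 4045360, where 7 of 9 pseudogenes fell. AT4G06712 had 2701 on TEKi 1 and 3064 on TEKi 2, against 42071 on wild type 1 and 36632 on wild type 2, and AT4G06718 fell 22.1-fold. AT4G06720 and AT4G06736 lie in the same run. Of 6 transposable element genes there, 1 fell. The other spans chromosome 5 from 12142860 to 12184398, where 7 of 9 pseudogenes and none of 5 transposable element genes fell. A shorter run on chromosome 2, from 570438 to 582049, holds AT2G02200, AT2G02205 and AT2G02210, which fell 4.37-fold, 194-fold and 28.1-fold.

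Identity to the protein resembled was given for 462 pseudogenes, and 3 of these fell (1 of 175 at 40% to 59%, 2 of 137 under 40% and none of 150 at 60% or more), against 102 of 742 with none given. Descriptions with no identity are largely those of hypothetical proteins, so identity and resemblance cannot be told apart.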

How the data were processed

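Deposited intensities on a linear scale, 1 per gene model and array, came from the authors, who used RMA per the submitters' processing notes. RMA corrects background, normalizes arrays and summarises probe pairs, with no version or settings stated in the sources used here. Gene models follow genome release 6 per the file headers. Each value-table column was identical to 1 array file for 30361 genes. A deposited error column was not used because its scale is not stated.

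Intensities were taken to log2 with no pseudocount after 9 genes with a 0 (2 pseudogenes) were left out. TEKi and wild type were compared by limma 3.58.1 in R 4.3.3 (lmFit, eBayes, 2-sided, n = 2 per group), on 30352 genes, with Benjamini-Hochberg adjustment over all of them and a threshold of 0.05. Adjusted p-values come from this fit, as do the SEs (moderated standard errors of log2 differences). The procedure was tested on simulated data. The number of arrays limits the precision.

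Members and lists were chosen with earlier results of these data known. Classes were read from the descriptions without intensities, and the 500 kb windows, RefSeq biotypes (TAIR10.1, names and biotypes alone), the split of hypothetical proteins and the pair of undisputed arrays were chosen after seeing the files. Named were, per source of labels, up to 12 pseudogenes past the threshold in each direction by size, or the 5 with the smallest unadjusted p and groups apart where fewer than 5 passed. The 5 brightest and, in each class of 5 or more, the widest-ranging and the brightest member could be named, as could loci whose description names a relative. AT1G07800, AT5G35145, AT2G13890, AT1G28455, the recurrent description and the members of runs were named after their values were seen. The alternatives were other variance models, normalizations, filters on dim genes, a pseudocount of 50, a replicate block, other thresholds and leaving out each array.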

Additional observations from a re-analysis of the deposited data

How the results depend on the processing

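With the array-file labels 0 genes and 0 pseudogenes were called by limma under each alternative that kept those labels, and 674 and 106 with the value-table labels. The pseudogenes' median log2 difference (0.040) ran from -0.14 to 0.19 without single arrays. AT3G30733 (0.028), AT3G28157 (0.23) and AT2G10234 (-0.36) changed sign with the value-table labels. The other 7 pseudogenes named with the array-file labels kept theirs at -0.19 to 0.23. All of these were chosen for small p and groups apart with the array-file labels. Overlap and small differences with the value-table labels follow from that choice. With those labels, all genes called (674) were 1150 with a mean-variance trend, 191 without genes below the median level, and 0 with the replicate block, at adjusted p = 0.01 or without any 1 array. Pseudogenes called (106) were 42 without genes below the median level, and 0 with the replicate block, at adjusted p = 0.01 and without any 1 array. The other alternatives gave 95 to 156. The pseudogenes' median (-0.058) was -0.74 without the lowest quartile of level, -0.66 without genes below the median level (440 and 112 pseudogenes left) and -0.15 to -0.11 without single arrays. These filters use the mean over both groups, so they select partly on the difference. In the undisputed pair 54 pseudogenes were at least 4-fold higher, against 16 with 4 arrays. Replicate numbers are shared between groups as numbers alone: the correlation of same-numbered deviations was 0.65 with the array-file labels and 0.11 with the value-table labels, over 2 pairs. Leaving out an array leaves 1 array in its group, assumed to vary like the other group. No detection flags were used, so what dimness hides is not known.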
